A study of Mus musculus with 8 samples.

Results

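A set of 7 genes that encode retinoic acid (RA) receptors and corepressors was followed in fibroblasts exposed to RA: Rara, Rarb, Rarg, Rxra, Rxrb, Ncor1 and Nrip1. They were chosen by their symbols, and all 7 were found among the 22200 genes of the expression table. All 7 also passed the filter on low values, a mean of at least 10 normalised reads over the 8 libraries, which 12673 genes passed. Messenger RNA was measured by sequencing in immortalised mouse embryonic fibroblasts of the C57BL/6 background, and every library, the untreated ones included, carries the genotype label TAF4-/-. TAF4 belongs to TFIID, which helps RNA polymerase II to start at promoters. The labels give 3 untreated libraries at 12 h, 3 libraries of cells treated with RA for 12 h, and 2 libraries of cells treated with RA for 72 h. No untreated library at 72 h is among them, so the length of culture and the treatment cannot be told apart in the comparison of 72 h with untreated cells, and both RA groups were compared with the same 3 untreated libraries.

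By the study's methods the TAF4-null cells are 1 line, made with Cre recombinase from fibroblasts of embryos that carried a floxed Taf4 allele, so the replicates are of 1 line; the labels call the cells immortalised. The titles carry cl1, which resembles the name C1 of the parental line that still expresses TAF4. The study's methods name the TAF4-null line, C3, as the source of the sequenced RNA. They also report that its loss of TAF4 was checked by PCR genotyping and western blot. The targeted gene, listed as Taf4a, was read at 984 to 1449 normalised reads in the 8 libraries. The deleted exons are not given in the sources used here, and reads from the rest of the gene would be counted, so this level does not check the genotype. Of 11 fibroblast markers, 8 had a mean of at least 100 normalised reads, among them the collagen genes, while Thy1, Lum and Dcn lay between 1 and 8. No marker of blood, endothelial, epithelial or pluripotent cells exceeded 29.1 in any library. The labels do not say whether replicates came from separate cultures, so p-values measure the spread between these samples, which may be technical.

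RA enters the cell and binds the retinoic acid receptors RARα, RARβ and RARγ, encoded by Rara, Rarb and Rarg, which sit on DNA as heterodimers with a retinoid X receptor such as RXRα or RXRβ. Without ligand the heterodimer holds corepressors such as NCOR1, which bring in histone deacetylases. Ligand binding releases them and recruits coactivators. NRIP1, also called RIP140, is unusual among corepressors in that it binds receptors that carry their ligand. Rarb and Nrip1 are themselves known as RA-responsive genes in several cell types.

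The receptor pair recognises a 6-base motif that occurs in 2 copies, and a direct repeat with a spacer of 5 bases (DR5) is the classic RA response element. The sequence of the Rarb promoter is shown because Rarb gave the only change of at least 2-fold among the 7 genes. The RefSeq promoter windows (GRCm38.p6, 250 bases before to 50 bases after a start) were searched on both strands for direct repeats of the motif NGNTCA, with A or G as the first letter and G or T as the third, and a spacer of 1, 2 or 5 bases. The 7 genes have 15 windows, and 1 of them held such a repeat, a DR5 53 to 37 bases before the start of Rarb. This element, with both of its copies of the motif in capitals, and the 250 bases before the start that contain it, are as follows. The capitals mark the repeat only, and a lone match to the motif further upstream in the stretch is left in lower case. The sequence was found without mismatch in mm9, the assembly used for the files, at chr14:17407991-17408240 on the minus strand, and the element itself at chr14:17408027-17408043.
Rarb DR5: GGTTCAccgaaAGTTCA
Rarb promoter: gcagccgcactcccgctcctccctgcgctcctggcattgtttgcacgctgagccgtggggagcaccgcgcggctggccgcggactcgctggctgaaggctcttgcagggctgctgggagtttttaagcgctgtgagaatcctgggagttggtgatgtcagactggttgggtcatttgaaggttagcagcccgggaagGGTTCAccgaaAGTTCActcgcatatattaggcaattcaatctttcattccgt

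A DR5 was present in 32 of all 32851 windows (0.0974%), a repeat with a spacer of 1 base in 73 (0.222%) and one with a spacer of 2 bases in 88 (0.268%). No window of Rara, Rarg, Rxra, Rxrb, Ncor1 or Nrip1 held any of them, which says only that these letters are not in those windows. In mm9 the Rarb window lies inside the gene. Of its 3 annotated transcripts, 2 start at position 17651381 of chromosome 14 and 1 starts at 17407986, 243 kb further along the gene and 4 bases from the RefSeq start. The table gives 1 value per gene, so the transcripts from the separate starts cannot be told apart in it.

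Values are quantile-normalised reads per gene, and changes are differences of log2(value + 1) with their standard errors from limma, a linear model fitted to all genes tested. A gene was called when its Benjamini-Hochberg adjusted p was below 0.05 and its change at least 2-fold. At 12 h, 1 of the 7 genes was called, Rarb, against 1.42% of all genes tested (1.11% called higher). At 72 h it was again 1 of 7, Rarb, against 3.67% (2.15% called higher). Between 72 h and 12 h of RA, 0 of the 7 were called, against 1.5%, and 0 had an adjusted p below 0.05 by limma, against 5.84%. Without the fold minimum, 1 of 7 passed at 12 h (4.37% of all genes) and 2 of 7, Rarb and Nrip1, passed at 72 h (11.5%). The median log2 change of the 7 genes was 0.21 at 12 h and 0.14 at 72 h, beside -0.016 and -0.020 over all genes tested.

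**Figure D1:**
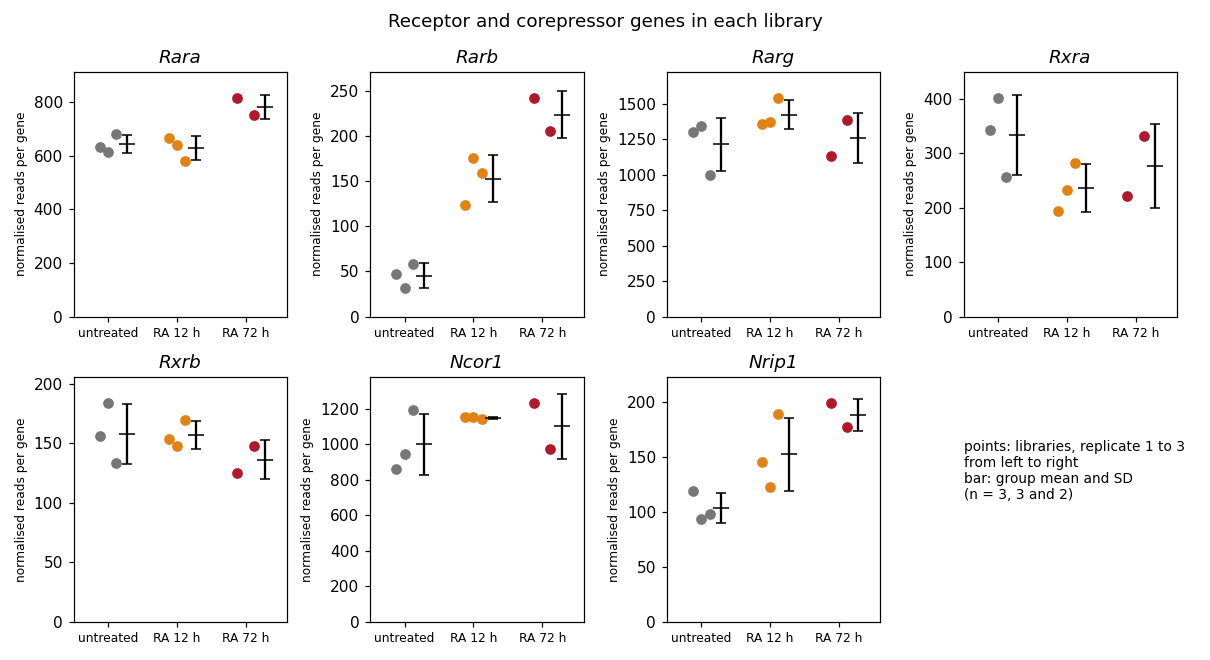
Normalised reads per gene (vertical axis, from 0) of the 7 genes in each of the 8 libraries, with a bar for the group mean and SD. Rarb lies between 31.1 and 58.4 in untreated cells and between 124 and 242 in the RA libraries, whereas the groups of Rxra and Rxrb overlap.

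Rarb (chr14:17263356-17651381 in mm9, minus strand) encodes RARβ, the receptor best known as a direct RA target. It was read at 46.6, 31.1 and 58.4 normalised reads in the 3 untreated libraries, at 124, 175 and 159 after 12 h of RA, and at 242 and 205 after 72 h. Every RA library lay above every untreated library, and both libraries at 72 h lay above all 3 at 12 h. The means were 45.4 ± 13.7 (SD, n = 3), 153 ± 26.3 (n = 3) and 223 ± 25.8 (n = 2). Rarb rose 3.38-fold at 12 h, a log2 change of 1.76 ± 0.22 (SE, 95% interval 1.29 to 2.22, limma adjusted p = 0.00021). At 72 h it stood 4.97-fold above untreated cells, a log2 change of 2.31 ± 0.24 (1.79 to 2.83, limma adjusted p = 3.44e-05). By size of rise it was the 41st of the 12673 genes at 12 h and the 25th at 72 h. The further difference between 72 h and 12 h, 0.56 ± 0.24 on the log2 scale, had a limma adjusted p of 0.226 and did not pass, although its unadjusted 95% interval ran from 0.038 to 1.08. In whole RNA of a culture, more cells with Rarb message and more message per cell cannot be told apart, and the same holds for each gene below.

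Set against its genomic span, the untreated level of Rarb lay near the 25th percentile of long genes. Rarb spans 388 kb on chromosome 14, the longest of the 7 genes, and exons make up 0.849% of that span. As a yardstick, the reads per Mb of span were taken over 2365 genes longer than 100 kb. These are all reads of those genes, exons included, so a percentile of them is not a measured part of the Rarb reads. The span is the divisor, so a long span by itself lowers this quantity. Values hardly ran with exon length (Spearman's rho = -0.0213 across genes, which are not replicates), so the span sets no expected level. The 25th percentile of this quantity, scaled to the span of Rarb, came to between 89.3% and 112% of the Rarb value in the 3 untreated libraries. In the RA libraries it came to between 23.6% and 47.0%. For the other 6 genes it was at most 13.3% of the value in any library. With this amount subtracted, untreated Rarb reached the lowest value of 1 in part of the libraries, and the log2 changes of 5.07 at 12 h and 5.87 at 72 h depend on that floor. The 5th percentile, chosen after seeing the data, gave 40.0% to 51.0% in untreated cells and 11.6% to 22.5% with RA, and with it subtracted the log2 changes were 2.34 and 2.99. Rarb was called in all of these versions, and how much of its untreated value was spliced message was not tested.

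**Figure D2:**
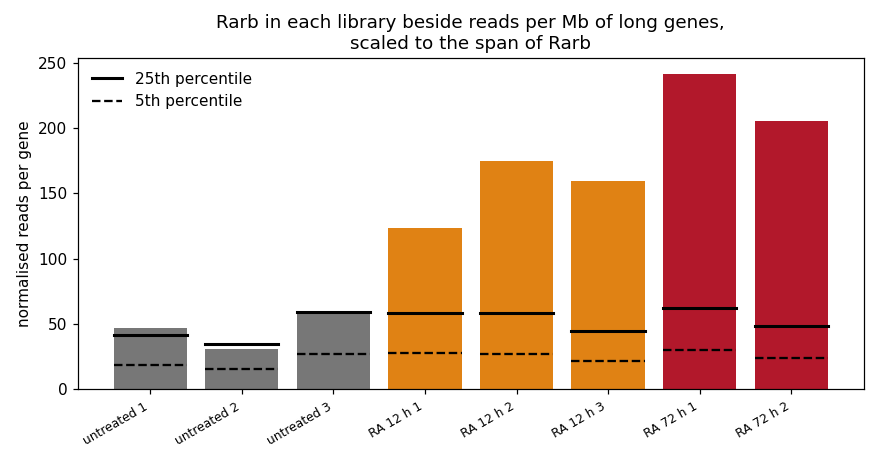
Normalised reads of Rarb (bars, from 0) in each library, with lines for the 25th (solid) and 5th (dashed) percentile of reads per Mb in genes over 100 kb, scaled to the 388 kb of Rarb. The solid line lies at 89.3% to 112% of the untreated bars and at no more than 47.0% of the bars with RA.

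Rara (chr11:98789132-98836256, plus strand) encodes RARα, which is present in most tissues. Its values were 634, 615 and 683 in untreated cells, 665, 642 and 581 after 12 h of RA, and 816 and 751 after 72 h. The untreated and 12 h libraries overlapped, and both 72 h libraries lay above all the others. The log2 change was -0.035 ± 0.10 at 12 h (95% interval -0.25 to 0.18) and 0.28 ± 0.11 at 72 h, with limma adjusted p of 0.899 and 0.142. Rara was the steadiest of the 7 genes within groups, with a residual SD of 0.0890 on the log2 scale beside a median of 0.188 over all genes tested.

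Rarg (chr15:102065369-102087948, minus strand) encodes RARγ, which is prominent in embryonic connective tissue and skin. It was read at 1299, 1346 and 998 in untreated cells, at 1361, 1372 and 1542 after 12 h, and at 1134 and 1386 after 72 h. The 12 h libraries lay above the untreated ones by a narrow margin, and the 72 h libraries overlapped both groups. The log2 changes were 0.24 ± 0.13 at 12 h and 0.059 ± 0.14 at 72 h, and neither passed (limma adjusted p = 0.377 and 0.851). Groups without overlap and higher with RA were found for 3 of the 7 genes at 12 h (Rarb, Rarg and Nrip1), against 9.42% of all genes tested. At 72 h they were again 3 of 7 (Rara, Rarb and Nrip1), against 17.2%, and between 72 h and 12 h they were 2 of 7 (Rara and Rarb), against 18.1%.

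**Figure D3:**
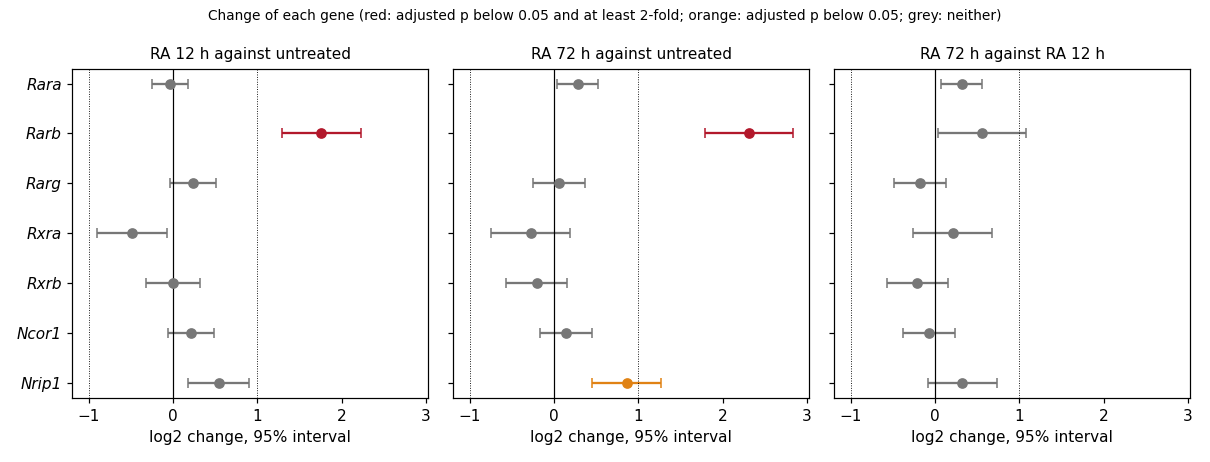
Log2 change (horizontal axis) of the 7 genes in the 3 comparisons, with 95% intervals from limma; dotted lines mark a 2-fold change. Rarb stands at 1.76 and 2.31 in the comparisons with untreated cells, Nrip1 at 0.54 and 0.86, and the intervals of Rarg, Rxrb and Ncor1 include 0 in all 3 panels.

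The balance of the RAR genes was examined as a level per kb of exon. Over 12344 protein-coding genes the mean value hardly ran with exon length (Spearman's rho = -0.0213, across genes, which are not replicates). The division by length may therefore add a bias rather than remove one, and means without it are also given. In untreated cells Rarg had the highest level of the 7 genes at 296 normalised reads per kb of exon, followed by Rara at 141, Ncor1 at 78.0, Rxra at 61.0, Rxrb at 42.6, Rarb at 13.8 and Nrip1 at 9.05. The ranges of neighbours in this order overlapped for Ncor1 and Rxra, for Rxra and Rxrb, and for Rarb and Nrip1. After 12 h of RA, Rarb ranked above both RXR genes at 46.3 per kb, with a range that overlapped that of Rxra at 43.2. After 72 h it again ranked between Ncor1 and Rxra, at 67.8 per kb, and did not overlap Rxra at 50.5 or Ncor1 at 85.9. With the longest transcript as the length, the order at 12 h differed, as Rxrb at 59.8 per kb lay above Rarb at 50.3, with overlapping ranges. Without any division by length the order of these genes was another one. At 12 h the mean of Rarb, 153 normalised reads, lay below those of Rxrb (157) and Rxra (236). At 72 h Rarb, at 223 with a range of 205 to 242, lay below Rxra at 276, whose range of 221 to 331 overlapped it. The rank of Rarb among the RXR genes therefore depends on the length used.

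Rarb made up 3.02%, 2.0% and 4.32% of the summed RAR level per kb of exon in the untreated libraries. After 12 h of RA its share was 7.29%, 10.1% and 8.78%, and after 72 h it was 13.9% and 11%. The 3 groups did not overlap in this share. Rarg held the largest share in every library, on average 65.4 ± 5.42% (SD, n = 3) in untreated cells, 65.3 ± 2.53% (n = 3) at 12 h and 56.1 ± 5.32% (n = 2) at 72 h. The level of Rarg per kb was 21.4 times that of Rarb in untreated cells and 4.52 times at 72 h. These figures depend on the untreated value of Rarb, which lay near the 25th percentile of long genes in reads per Mb of span. With the 5th percentile subtracted, a choice made after seeing the data, the ratio was 39.1 in untreated cells and 5.13 at 72 h, and the mean share of Rarb was 1.73%, 7.37% and 11.2% in the 3 groups. With the longest transcript as the length in place of all exons, the mean share of Rarb was 2.47%, 6.99% and 10.1% in the 3 groups. Without any division by length, the means of Rarb, Rara and Rarg were 45.4, 644 and 1214 normalised reads in untreated cells. At 72 h they were 223, 783 and 1260. The shares and ratios above hold only per kb.

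**Figure D4:**
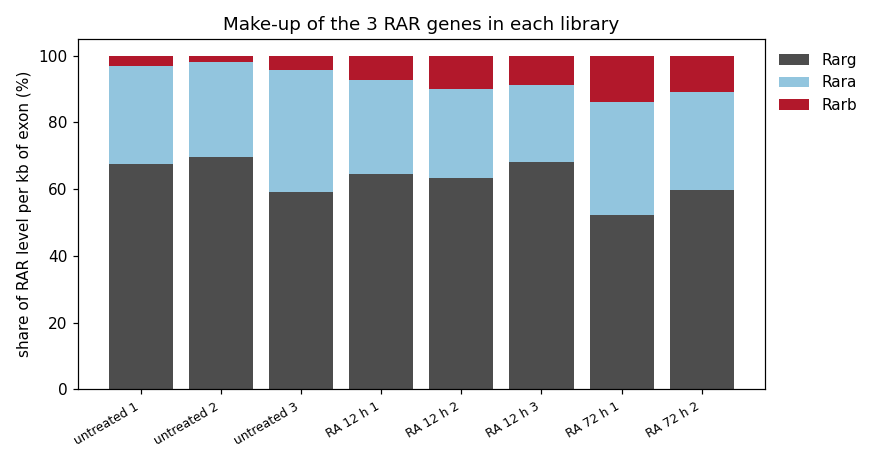
Share of Rarg, Rara and Rarb in the summed RAR level per kb of exon (vertical axis, %) in each of the 8 libraries. The share of Rarb lies between 2.0% and 4.32% in untreated cells, between 7.29% and 10.1% at 12 h and at 11% and 13.9% at 72 h.

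Rxra (chr2:27531960-27618477, plus strand) and Rxrb (chr17:34168757-34175338, plus strand) encode the heterodimer partners of the RARs. Rxra was read at 342, 401 and 256 in untreated cells, at 194, 232 and 282 after 12 h of RA, and at 221 and 331 after 72 h. The groups overlapped at both times. The log2 change of Rxra was -0.49 ± 0.19 at 12 h (unadjusted 95% interval -0.91 to -0.069) and -0.28 ± 0.22 at 72 h, with limma adjusted p of 0.221 and 0.49. The change at 12 h depended on the libraries used. Without untreated replicate 3, the lowest of its group, it was -0.66 and passed (limma adjusted p = 0.0304). Without untreated replicate 2, the highest, it was -0.34 and did not pass (limma adjusted p = 0.513). Leaving out each library in turn gave changes from -0.66 to -0.34. Leaving out untreated replicate 3 also raised the genes called at 12 h from 180 to 322 among all tested, so it affected other genes too.

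Rxrb was read at 156, 183 and 133 in untreated cells, at 154, 148 and 170 after 12 h, and at 124 and 148 after 72 h. Its groups overlapped in both comparisons with untreated cells. The log2 change was 0.0030 at 12 h (95% interval -0.32 to 0.32, limma adjusted p = 0.995) and -0.20 at 72 h (-0.56 to 0.15, limma adjusted p = 0.506). Per kb of exon, Rxra took 58.6 ± 1.83% of the summed level of both genes in untreated cells (SD, n = 3), 50.2 ± 3.60% at 12 h (n = 3) and 57.4 ± 4.02% at 72 h (n = 2). Rxrg, the third gene of the family, was under the filter on low values.

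Ncor1 (chr11:62129928-62272043, minus strand) encodes the scaffold that links unliganded receptors to histone deacetylase 3. It was read at 862, 944 and 1194 in untreated cells, at 1151, 1154 and 1143 after 12 h of RA, and at 1231 and 973 after 72 h. The untreated libraries spanned the values of all 3 libraries at 12 h. The log2 change was 0.21 ± 0.13 at 12 h (95% interval -0.063 to 0.49) and 0.14 ± 0.14 at 72 h (-0.17 to 0.45), with limma adjusted p of 0.441 and 0.604. Exons of Ncor1 share 88 bases (0.686% of their length) with neighbouring genes, and reads there cannot be assigned without strand.

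Nrip1 (chr16:76287645-76374072, minus strand) passed at 72 h and not at 12 h. Its values were 119, 93.8 and 98.3 in untreated cells, 146, 123 and 189 after 12 h of RA, and 199 and 178 after 72 h. All RA libraries lay above the untreated ones, and the 12 h and 72 h libraries overlapped. At 12 h the log2 change of 0.54 ± 0.17 (95% interval 0.17 to 0.91) did not pass (limma adjusted p = 0.107). At 72 h Nrip1 rose 1.82-fold, a log2 change of 0.86 ± 0.19 (0.45 to 1.27, limma adjusted p = 0.0090), under the 2-fold minimum. Without RA 72 h replicate 1, the higher of the pair, the change at 72 h was 0.78 with an adjusted p of 0.10, and the lone library left was assumed to vary like the other groups.

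The libraries also differed within groups along 1 shared axis, the first principal component of the deviations from the group means, which held 50.1% of their variance. On one side of it lay 4 libraries (2 untreated, replicates 1 and 2, with replicate 3 of RA 12 h and replicate 2 of RA 72 h), and the other 4 lay on the opposite side. Within the sides, the log2 change of Rarb was 2.03 and 1.32 at 12 h and 2.40 and 2.03 at 72 h. That of Nrip1 at 72 h was 0.75 and 1.01. For Ncor1 the sides gave 0.34 and -0.051 at 12 h, and -0.23 and 0.095 between 72 h and 12 h. For Nrip1 between 72 h and 12 h they gave -0.086 and 0.57. Each side held only 1 or 2 libraries of a group, and 1 at 72 h. The sides were also drawn from these same deviations. All these values within sides are thus differences between single libraries or pairs, and they settle no direction. Across genes, which are not replicates, the deviations of a library ran with gene span, with Spearman's rho between -0.28 and -0.069 in the first 4 libraries and between 0.14 and 0.30 in the others, and Rarb has the longest span of the 7 genes.

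Among the 8 libraries, the level of Rarb ran most closely with those of 2310008H09Rik (Pearson's r = 0.984 on the log2 scale), 2310016C16Rik (0.982), 6330406I15Rik (0.981), Triobp (0.980) and Ubxn8 (0.979), of 11173 genes with a mean of at least 20. Triobp, whose protein binds filamentous actin, went from 601 ± 67.9 to 1394 ± 48.5 and 1705 ± 27.4 normalised reads in the 3 groups (SD, n = 3, 3 and 2). Such values are a description, since the libraries share their groups, and 211 genes had r above 0.9. Among the other members, r with Rarb was highest for Nrip1 (0.86), followed by Ncor1 (0.57), Rara (0.50) and Rarg (0.21), and it was negative for Rxrb (-0.50) and Rxra (-0.59).

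The genes that work around the receptors were described by 4 lists. Of the corepressor complex partners, which include the histone deacetylases, 16 of 19 were tested and 0 were called by limma in any comparison. Of all genes tested, 1.42% were called at 12 h, 3.67% at 72 h and 1.5% between 72 h and 12 h. For 16 genes, 0 calls lie near these shares. At an adjusted p below 0.05 alone, 0 passed at 12 h by limma, against 4.37% of all genes tested. At 72 h the class II deacetylase gene Hdac5, named after its values were seen, went from 599 ± 59.3 to 391 ± 4.77 normalised reads (SD, n = 3 and 2), a log2 change of -0.61 ± 0.12 (limma adjusted p = 0.00544). The log2 changes of the list ran from -0.34 to 0.14 at 12 h, and the medians at 12 h and 72 h were -0.054 and -0.10.

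Of the coactivators, 18 of 20 were tested and again 0 were called by limma in any comparison. Beside 1.42% of all genes at 12 h, 3.67% at 72 h and 1.5% between 72 h and 12 h, this is near the overall share. Without the fold minimum 1 of 18 passed at 72 h, against 11.5% of all genes tested. This gene, Ncoa3, also named after its values were seen, encodes the p160 coactivator SRC-3 and went from 160 ± 10.1 to 259 ± 12.1 normalised reads (log2 change 0.69 ± 0.13, limma adjusted p = 0.00431). The median log2 change of the coactivators was -0.0086 at 12 h and -0.013 at 72 h.

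Of the genes for retinoid supply, binding and breakdown, 11 of 22 were tested. At 12 h, 3 of the 11 were called higher (1.11% of all genes were), and the median of the 11 was -0.090, below 0. The 3 were Cyp26b1, which encodes an enzyme that oxidises RA, Dhrs3, whose product reduces retinal to retinol, and Crabp2, which encodes a protein that carries RA to its receptors. Crabp2 went from 826 ± 47.1 to 2394 ± 110 at 12 h (log2 change 1.53 ± 0.095, limma adjusted p = 5.9e-07) and was at 1299 ± 98.4 at 72 h. It was lower at 72 h than at 12 h by a log2 change of -0.88 (limma adjusted p = 0.000295), whereas Dhrs3 was higher by 1.14 (0.00249). At 72 h, Cyp26b1 and Dhrs3 were called, with log2 changes of 6.51 and 4.6 against 2.31 for Rarb. Without the fold minimum, 4 of the 11 passed higher and 1 passed lower at 72 h, 5 of 11 against 11.5% of all genes. Beside the 3 above these were Rdh11 (0.79, limma adjusted p = 0.0182) and Cyp1b1 (-0.95, 0.000673), named after their values were seen. The DR5 search of the promoter windows gave a match for 1 of the 16 genes of this list that have a window, Cyp26a1, which was under the filter on low values.

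Of the other RXR partners, 10 of 14 were tested and 1 was called, at 12 h (1.42% of all genes) and at 72 h (3.67%). Pparg, which encodes the receptor that drives fat cell formation, was at 92.1 ± 18.7 normalised reads in untreated cells, 231 ± 16.0 after 12 h of RA and 359 ± 57.3 after 72 h. It rose by log2 changes of 1.34 ± 0.16 and 1.96 ± 0.17 (limma adjusted p = 0.000142 and 9.19e-06), beside 1.76 and 2.31 for Rarb. Vdr, the vitamin D receptor gene, named after its values were seen, passed at 72 h without the fold minimum (log2 change -0.78 ± 0.23, limma adjusted p = 0.0478), so that 2 of the 10 passed there, against 11.5% of all genes. The median log2 change of this list was -0.16 at 12 h and -0.059 at 72 h.

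**Figure D5:**
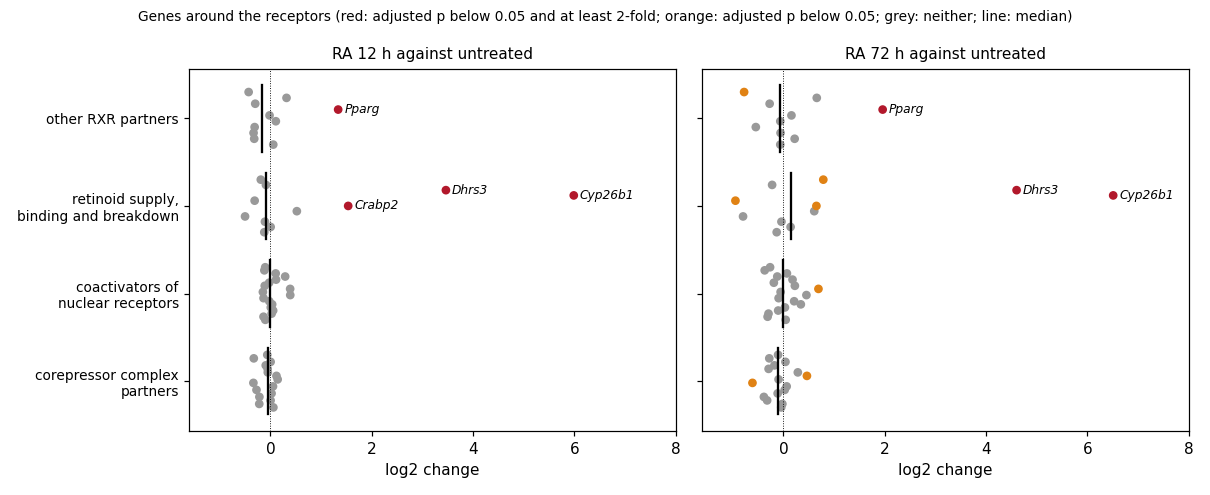
Log2 change (horizontal axis) of each tested gene in the 4 lists at 12 h and at 72 h of RA against untreated cells; a vertical line marks the median of each list. Cyp26b1, Dhrs3 and Pparg are called in both panels and Crabp2 at 12 h, while 0 of the 16 corepressor partners and 0 of the 18 coactivators are called. Of all genes tested, 1.42% are called at 12 h and 3.67% at 72 h.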

How the data were processed

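RNA from the 8 libraries was sequenced by the authors. The deposited values are not counts but another unit, quantile-normalised reads per Ensembl gene, with identical sorted values in all columns. The lowest value is 1 and each column sums to 9442018.6. Read depth cannot be recovered after this step, so no counting interval can be given. The labels describe DpnII tag libraries aligned to mm9, whereas the study's methods describe fragmented RNA with longer reads, another normalisation and, unlike the study's results and the labels, another time than 72 h for the later treatment. The labels were followed for the groups. The authors' ratios and averages were not used, and 1 line without a gene was left out.

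Genes whose mean reached 10 were kept, the scale was log2(value + 1), and 1 model with the 3 groups and a variance trend was fitted with limma 3.58.1 in R 4.3.3. P-values were two-sided and adjusted by Benjamini-Hochberg over the 12673 genes within each contrast. On simulated data with log2 changes of 1, the same steps gave an adjusted p below 0.05 for 84% of changed genes at 12 h and 79.5% at 72 h, and a call for 45% and 48%. Gene positions came from an mm9 annotation, and promoters from RefSeq (GRCm38.p6). By rule the genes named were the 7 members, list genes called in any contrast, the 5 genes closest to each called member by Pearson's r, and Taf4a. Markers, Hdac5, Ncoa3, Rdh11, Cyp1b1, Vdr, Rxrg and the genes with a DR5 were named outside this rule, after their values were seen. The result of 1 list gene is not reported here. The members and lists were chosen with earlier results of these data known. The alternatives were other pseudocounts, no filter, leaving out each library, 2 groups only, a replicate block, no variance trend, other call rules, subtraction of reads per Mb of span, the shared axis as a term, and another gene length.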

Additional observations from a re-analysis of the deposited data

How the results depend on the processing

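Under 18 other ways of processing, Rarb was called at 12 h and at 72 h in all of them, with log2 changes from 1.51 to 5.07 and from 2.07 to 5.87. Leaving out 1 library at a time gave 1.51 to 1.96 and 2.07 to 2.52. The only alternative that changed how many of the 7 genes were called dropped the fold minimum, which gave 2 at 72 h, Rarb and Nrip1. Many of the 378 recomputed changes of single genes could not change sign. A change stays as it was when only the call rule, the filter, the variance trend or the number of groups fitted differs. The same holds when the library left out belongs to neither group compared. Of the 378, 10 changed sign, all on leaving out a library and all of genes that did not pass. The largest of these was 0.28 in size before, and the largest after was 0.11. By result, the ranges over the libraries left out were -0.076 to 0.022 for Rara and -0.11 to 0.12 for Rxrb at 12 h. At 72 h they were -0.086 to 0.20 for Rarg, -0.56 to 0.014 for Rxra and -0.027 to 0.31 for Ncor1. Between 72 h and 12 h they were -0.077 to 0.50 for Rxra and -0.24 to 0.099 for Ncor1.

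With the shared within-group axis as a term, the adjusted p by limma fell below 0.05 for Rarg (0.0119) and Nrip1 (0.0129) at 12 h, and for Rara (0.0159) and Rarb (0.0469) between 72 h and 12 h, all under 2-fold. The axis was drawn from the deviations of these same libraries, so the term lowers the spread by construction. These lower p-values are therefore no separate support. Over 7 pairs of same-numbered libraries, r between their deviations from the group means lay between -0.474 and 0.420, and 2 exceeded 0.1. The deviations of the 2 libraries at 72 h mirror each other by construction, so this check cannot exclude a pairing. The fit with a replicate block left Rarb as the 1 gene of the 7 called at 12 h and at 72 h. Between 72 h and 12 h it called 0 of the 7. It called 174, 430 and 172 genes in all in the 3 comparisons. By the longest transcript per gene, Rxra took 44.4% of the RXR level at 12 h, below Rxrb, against 50.2% by all exons. Depth is unknown, and 2 libraries at 72 h limit the precision there.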

Other observations

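Of the 31 genes with a DR5 in a RefSeq promoter window, 4 passed the filter on low values: Rarb, Ppbp, Prss27 and Blvrb, named here after their values were seen. Ppbp, which encodes a platelet chemokine precursor, was called at 12 h with Rarb (log2 change 1.49 ± 0.22, limma adjusted p = 0.00118) and stood at 0.62 ± 0.25 at 72 h (0.147). Of these 4 genes, 2 were called at 12 h and 1, Rarb, at 72 h, beside 1.42% and 3.67% of all genes tested. Rarb was already known to be called when its promoter was shown. The filter used a mean that includes the RA libraries, which helps genes raised by RA to pass. These counts are therefore no separate support for a role of the DR5. Prss27 and Blvrb had log2 changes of 0.54 and -0.11 at 12 h with adjusted p of 0.459 and 0.868 by limma. Of the 16 tested genes with a repeat of spacer 1 and the 9 with a repeat of spacer 2, 0 were called by limma in any of the 3 comparisons. Of all genes tested, 1.42% were called at 12 h, 3.67% at 72 h and 1.5% between 72 h and 12 h. For so few genes 0 calls lie near these shares, so they do not set these repeats apart.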
